A study of Homo sapiens with 4 samples.

Results

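The genes described here are 9 genes that have been reported as more highly expressed in prostate cancers with an ERG gene fusion: TDRD1, PLA1A, CRISP3, ARHGDIB, CACNA1D, VWA2, KCNS3, KCNN2 and NCALD. They were taken by symbol from the GENCODE 29 annotation and matched to Ensembl identifiers without version, and all 9 were found among the 60308 gene identifiers of each count table. RNA-seq was done on VCaP cells, an established prostate cancer line with the TMPRSS2-ERG fusion, grown in DMEM with fetal bovine serum. The cells were transfected with an siRNA against non-targeting control (siNTC, 2 count tables) or with an siRNA against ZBTB7A (siZBTB7A, 2 count tables), so both groups carry the fusion and both were transfected. All samples are of 1 cell line, no untransfected cells and no fusion-negative cells were analysed here, and the labels do not say whether the tables came from separate cultures. The design asks which genes ZBTB7A regulates. ZBTB7A is a zinc finger transcription factor that mostly acts as a repressor.

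In fusion-positive prostate cancers the androgen-driven TMPRSS2 promoter is most often joined to ERG, an ETS family transcription factor that the normal luminal epithelium of the prostate does not make in quantity. ETS factors bind DNA at a short GGAA core. The genes reported to accompany ERG in these tumours have unrelated functions. TDRD1 is a tudor domain protein that normally works in the piRNA pathway of germ cells, CRISP3 and PLA1A are secreted proteins, ARHGDIB holds small GTPases inactive in the cytosol, VWA2 is an extracellular matrix protein, CACNA1D, KCNS3 and KCNN2 are ion channel subunits, and NCALD is a calcium sensor.

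The promoters of the 3 most abundant members are shown with that of VWA2, the next protein-coding neighbour of TDRD1 on chromosome 10 in RefSeq. TDRD1 is the member that passed the test described below, and whether its fold differs from that of VWA2 was not tested. Each run is the 250 bases before the most upstream RefSeq start of the gene, 5′ to 3′ on the gene's strand, from RefSeq's table for GRCh38.p14. TDRD1 lies at chr10:114179037-114179286 on the plus strand, CRISP3 at chr6:49744389-49744638 on the minus strand, PLA1A at chr3:119597635-119597884 on the plus strand and VWA2 at chr10:114239004-114239253 on the plus strand. Capitals mark the ETS core GGAA and the longer ETS motif CCGGAAG, which contains the core, each on either strand.
TDRD1: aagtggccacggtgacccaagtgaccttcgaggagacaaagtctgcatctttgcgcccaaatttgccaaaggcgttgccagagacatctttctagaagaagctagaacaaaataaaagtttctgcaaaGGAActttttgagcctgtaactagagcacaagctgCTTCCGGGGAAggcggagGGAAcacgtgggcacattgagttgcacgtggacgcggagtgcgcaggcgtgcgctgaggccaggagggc
CRISP3: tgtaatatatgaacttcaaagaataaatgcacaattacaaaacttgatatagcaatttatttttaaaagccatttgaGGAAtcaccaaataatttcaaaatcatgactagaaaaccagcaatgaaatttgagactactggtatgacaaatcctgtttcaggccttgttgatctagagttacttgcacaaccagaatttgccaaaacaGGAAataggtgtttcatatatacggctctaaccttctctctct
PLA1A: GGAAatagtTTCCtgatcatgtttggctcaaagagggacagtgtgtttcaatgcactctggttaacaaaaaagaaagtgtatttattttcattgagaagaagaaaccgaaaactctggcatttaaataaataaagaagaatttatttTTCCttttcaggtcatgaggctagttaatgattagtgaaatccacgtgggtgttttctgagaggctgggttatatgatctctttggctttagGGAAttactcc
VWA2: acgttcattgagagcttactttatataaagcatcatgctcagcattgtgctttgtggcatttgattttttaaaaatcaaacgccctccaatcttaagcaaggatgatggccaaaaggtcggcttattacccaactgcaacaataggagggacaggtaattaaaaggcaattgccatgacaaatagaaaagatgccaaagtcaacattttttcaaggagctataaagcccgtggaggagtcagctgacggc

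An entry was found for 8 of the 9 members. The core GGAA was present in 6 of these 8 windows. It was also present in 92.8% of the 27305 windows of the same length over all genes with an entry on the numbered chromosomes, X and Y, so it is common anywhere. The longer CCGGAAG was present in 1 of the 8, that of TDRD1, and in 8.78% of all windows. It reads on the minus strand and begins 87 bases before the TDRD1 start, where the shown strand has CTTCCGG. TDRD1 and PLA1A each had 4 matches to the core and CRISP3 had 2, while none of these letters were found in the window of VWA2. Of the members whose windows are not shown, KCNS3 had 5 matches, KCNN2 had 4, ARHGDIB had 2 and CACNA1D had 0. These are matches of letters and not measured binding sites.

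The tables held between 5556061 and 5927656 gene reads each. The pair of tables in each group differed by no more than read sampling (chi-square per degree of freedom 0.993 in siNTC and 0.995 in siZBTB7A, against 3.50 to 3.64 between groups), so each pair was taken as 1 sample. That leaves 1 library on each side and no replicate check. Folds below come from the summed tables, and their exact (Clopper-Pearson) 95% intervals cover counting error only, as reads carry no molecular identifiers. A gene is called where it passed edgeR's quasi-likelihood test at a Benjamini-Hochberg adjusted p under 0.05 over all 12848 genes tested, which compares the reads of these 2 libraries and not the 2 conditions.

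The targeted gene ZBTB7A was counted 90 and 115 times with siNTC and 70 and 74 times with siZBTB7A. Both siZBTB7A tables were lower, at a fold of 0.743 (0.596 to 0.924), but the gene was not called (edgeR adjusted p = 0.0969), so the size of the knockdown is poorly determined. Its log2 fold was -0.43. It was -0.57 when the first siNTC table was left out (edgeR adjusted p = 0.0565) and -0.26 when the second was (edgeR adjusted p = 0.588). ERG had 1749 and 1822 reads in siNTC and 1736 and 1684 in siZBTB7A. As counts per unit of sequencing depth (CPM, scaled by TMM factors) that was 301 and 303 against 316 and 297, so the tables of the groups overlapped, with a fold of 1.01 (0.967 to 1.06). The interval for the fusion gene thus contained 1 in the libraries in which the 9 genes were compared.

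All 9 members were detected in every table and all 9 passed the filter on low counts. Summed over both libraries they ranged from 515 reads (CACNA1D) to 10986 reads (CRISP3). Together they took 1176 and 1191 CPM in the siNTC tables and 1148 and 1177 CPM in the siZBTB7A tables. CRISP3, TDRD1 and PLA1A gave between 82.4% and 83.2% of the members' reads in each table.

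Compared per length, as CPM per kilobase of the union of annotated exons, the members spread over a 187-fold range in the siNTC library. CRISP3 stood at 214, PLA1A at 100.5, TDRD1 at 52.9, ARHGDIB at 19.3, VWA2 at 14.9, KCNS3 at 8.17, KCNN2 at 5.91, NCALD at 3.27 and CACNA1D at 1.14 CPM per kilobase. For scale, ERG itself stood at 39.8 CPM per kilobase, below TDRD1 and above ARHGDIB. The order was the same in the 4 tables, and no pair of neighbours in it had overlapping ranges over the tables. Among protein-coding genes tested, the level per kilobase placed CRISP3 at the 99.2 percentile, PLA1A at the 98.1 and TDRD1 at the 95.5, while NCALD was at the 37.6 and CACNA1D at the 13.9 percentile. The 3 leading genes were thus strongly expressed in this fusion-positive line, and the ion channel and calcium sensor genes were present at moderate to low levels. CACNA1D has 20588 bases of annotated exon in GENCODE 29, more than this cell line need use, so its level per kilobase is a low estimate. The other members and ERG also have more annotated exon than their longest transcript holds, to differing degrees. NCALD has 8042 bases against 3808, ERG 7588 against 5034 and TDRD1 5256 against 4510. The 187-fold range and the distance of ERG from TDRD1 therefore depend on the length used.

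**Figure D1:**
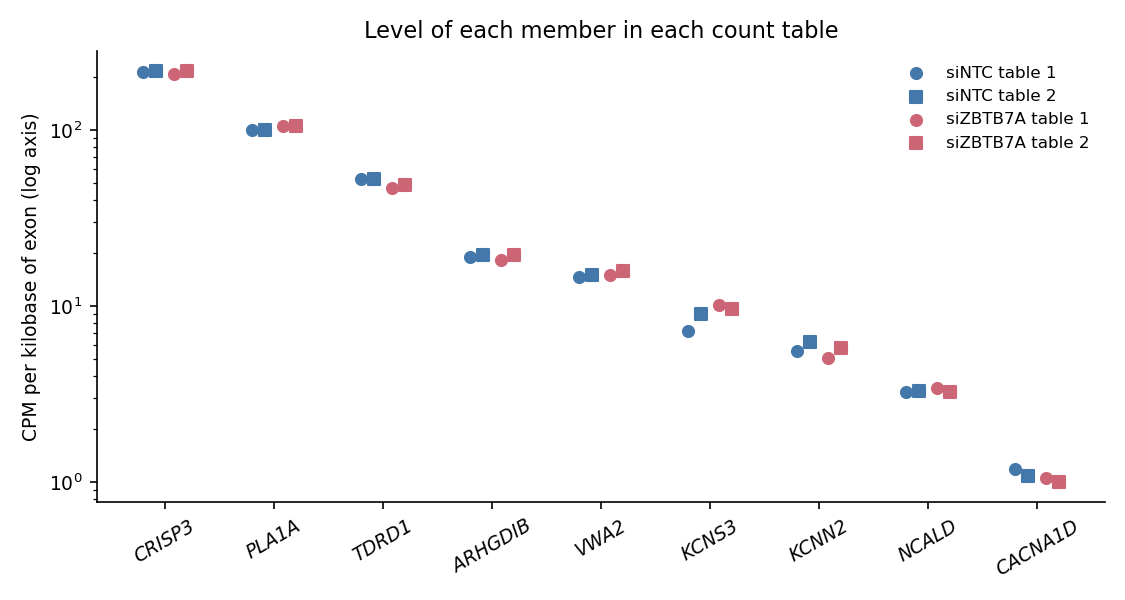
Level of each of the 9 genes in each of the 4 count tables, in CPM per kilobase of annotated exon on a log axis, ordered by level in siNTC; blue points are siNTC tables and red points siZBTB7A tables, circles the first and squares the second table of each group. The levels run from 214 for CRISP3 to 1.14 for CACNA1D in the siNTC library, and the order of the genes is the same in every table.

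Of the 9 members, 1 was called between the libraries, TDRD1, and it was lower. Over all genes tested, 4.97% were called in either direction, 2.72% lower and 2.25% higher. The other 8 members did not pass the test. The members' folds ran from 0.902 to 1.21, 4 above 1 and 5 below, with a median log2 fold of -0.018, where the median over all genes tested was 0.00080. The counting interval excluded 1 for 2 members, TDRD1 and KCNS3, against 17.1% of all genes tested. The tables of the groups did not overlap for 4 members, 2 lower (TDRD1 and CACNA1D) and 2 higher (PLA1A and KCNS3), a state found in 46.9% of all genes tested (23.4% lower).

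TDRD1 (ENSG00000095627.9) was counted 1613 and 1672 times with siNTC and 1359 and 1445 times with siZBTB7A. In CPM these were 278 and 278 against 248 and 255, so both siZBTB7A tables lay below both controls. TDRD1 fell to 0.903 of the control level (0.859 to 0.9503), which is 9.67% lower, with a log2 fold of -0.15 and an edgeR adjusted p of 0.00389. A difference of that size is small, and it was resolved because the gene had 6089 reads. The call was lost when folds were corrected for the GC content and length of the transcript (fold 0.923, adjusted p = 0.0561), and in DESeq2 (log2 fold -0.15, adjusted p = 0.102). It was also lost without the second siNTC table (log2 fold -0.14, adjusted p = 0.0520) and without the first siZBTB7A table (log2 fold -0.13, adjusted p = 0.115), at about the same log2 fold. The longest TDRD1 transcript is 40.6% GC, and the median over all genes called lower was 41.6%, against 54.2% over genes called higher and 48.1% over the rest. Only CRISP3 among the members has a lower value, 37.3%, and it was not called. The TDRD1 transcript is 4510 bases long, where the medians were 7151 over genes called lower, 2926 over genes called higher and 3604 over the rest. The part of GC content or length in the TDRD1 result was not tested.

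The members with secreted products were also well counted, apart from VWA2. CRISP3 (ENSG00000096006.11), a cysteine-rich secretory protein found in exocrine fluids and in neutrophil granules, had 2783 and 2899 reads in siNTC and 2560 and 2744 in siZBTB7A. In CPM these were 479 and 483 against 466 and 484, and the groups overlapped. Its fold was 0.988 (0.951 to 1.03), the narrowest interval among the members.

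PLA1A (ENSG00000144837.8), a secreted phospholipase that releases lysophosphatidylserine, had 1286 and 1327 reads in siNTC and 1271 and 1309 in siZBTB7A. In CPM these were 221 and 221 against 232 and 231, with both siZBTB7A tables above both controls. The fold was 1.04 (0.989 to 1.10), and the gene was not called (edgeR adjusted p = 0.421).

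VWA2 (ENSG00000165816.12), a matrix protein with von Willebrand factor A domains that is found at basement membranes, had 281 and 299 reads in siNTC and 272 and 297 in siZBTB7A. At 48.4 and 49.8 CPM against 49.6 and 52.4 CPM the groups overlapped. Its fold was 1.04 (0.923 to 1.17), an interval that overlaps that of its chromosomal neighbour TDRD1 (0.859 to 0.9503). Whether the folds of these neighbours differ from each other was not tested.

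ARHGDIB (ENSG00000111348.8), a GDP-dissociation inhibitor of small GTPases best known from blood cells, had 233 and 245 reads in siNTC and 211 and 232 in siZBTB7A. At 40.1 and 40.8 CPM against 38.4 and 40.9 CPM the groups overlapped, with a fold of 0.981 (0.860 to 1.12). Because this gene is typical of leukocytes, leukocyte markers were counted beside it. Of 8 such markers 6 had 0 reads in all tables, PTPRC had 1 read in all, and CD14 had 17 and 23 reads in the siNTC and siZBTB7A libraries. The marker list summed to between 9 and 12 reads per table, against at least 211 for ARHGDIB.

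Among the ion channel genes, KCNS3 (ENSG00000170745.11) had the largest fold of the 9 members. It encodes a potassium channel subunit that forms no current alone and modifies its partner channels. It had 132 and 170 reads in siNTC and 174 and 171 in siZBTB7A, or 22.7 and 28.3 CPM against 31.7 and 30.1 CPM. Both siZBTB7A tables were above both controls, but the first siNTC table was well below the second. The fold was 1.21 (1.03 to 1.42), and the gene was not called (log2 fold 0.27, edgeR adjusted p = 0.164). Without the first siNTC table the log2 fold was 0.12, and without the second it was 0.44.

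KCNN2 (ENSG00000080709.14), a small-conductance potassium channel opened by calcium, had 209 and 244 reads in siNTC and 182 and 212 in siZBTB7A. At 36.0 and 40.6 CPM against 33.2 and 37.4 CPM the groups overlapped, with a fold of 0.920 (0.802 to 1.06). Leaving out a table moved its log2 fold between -0.21 and -0.027, so the value depends on which tables are kept.

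CACNA1D (ENSG00000157388.13), the pore subunit of an L-type voltage-gated calcium channel, had 143 and 135 reads in siNTC and 119 and 118 in siZBTB7A. At 24.6 and 22.5 CPM against 21.7 and 20.8 CPM both siZBTB7A tables were below both controls. Its fold of 0.902 (0.755 to 1.08) was as far below 1 as that of TDRD1, but from 515 reads it was not distinguished from 1 (edgeR adjusted p = 0.591). NCALD (ENSG00000104490.17), a calcium sensor of the neuronal type, had 152 and 159 reads in siNTC and 151 and 148 in siZBTB7A. At 26.2 and 26.5 CPM against 27.5 and 26.1 CPM the groups overlapped, with a fold of 1.02 (0.865 to 1.196).

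**Figure D2:**
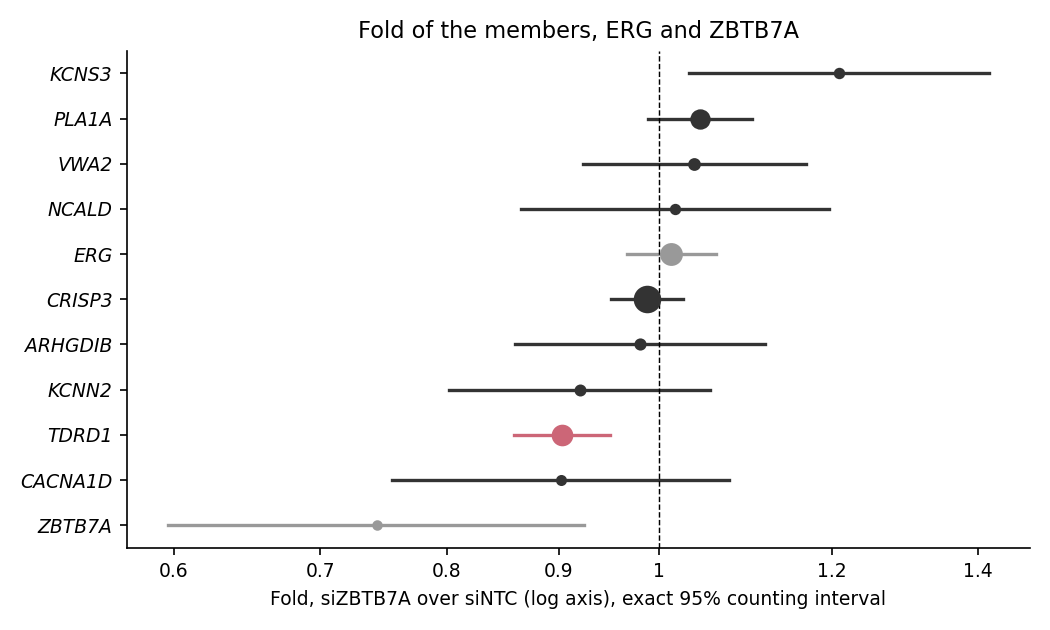
Fold of each member, ERG and ZBTB7A in the siZBTB7A library over the siNTC library on a log axis, with exact 95% counting intervals as lines and a point whose area grows with the number of reads; red marks the called member, black the other members and grey ERG and ZBTB7A. TDRD1 at 0.903 and KCNS3 at 1.21 are the members whose interval excludes 1.

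The width of these intervals followed the number of reads. With 10986 reads CRISP3 was bounded between 0.951 and 1.03, while with 515 reads CACNA1D was bounded only between 0.755 and 1.08. In the 6 members with at most 1149 reads each, the interval reached further from the fold than the 9.67% by which TDRD1 differed. A member without a call is therefore not shown to be equal in the 2 libraries.

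**Figure D3:**
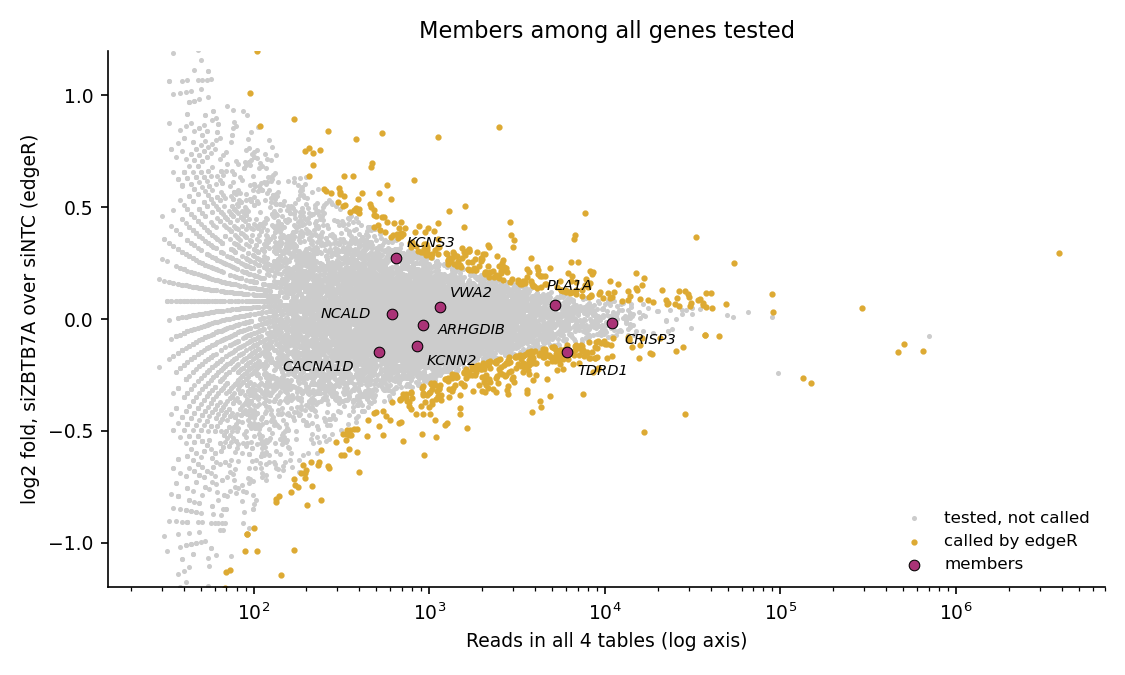
log2 fold (edgeR, siZBTB7A over siNTC) of the 12848 genes tested against their reads summed over the 4 tables on a log axis; grey points were not called, yellow points were called and purple points are the 9 members. TDRD1, with 6089 reads, lies at the lower edge of the cloud; 41 genes beyond 1.2 on the log2 scale are outside the axis.

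Correcting for transcript GC content and length moved the folds of some members towards 1 and of others away from it. PLA1A went from 1.04 to 1.03, CRISP3 from 0.988 to 0.9996, VWA2 from 1.04 to 1.001 and CACNA1D from 0.902 to 0.940. ARHGDIB went from 0.981 to 0.968, KCNN2 from 0.920 to 0.902, KCNS3 from 1.21 to 1.19 and NCALD from 1.017 to 1.020. With TDRD1 no longer called, 0 of the 9 members were called after this correction by edgeR, and 2 had an unadjusted p under 0.05. Over all genes tested, 2.87% were called after the correction and 15.3% had an unadjusted p under 0.05.

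**Figure D4:**
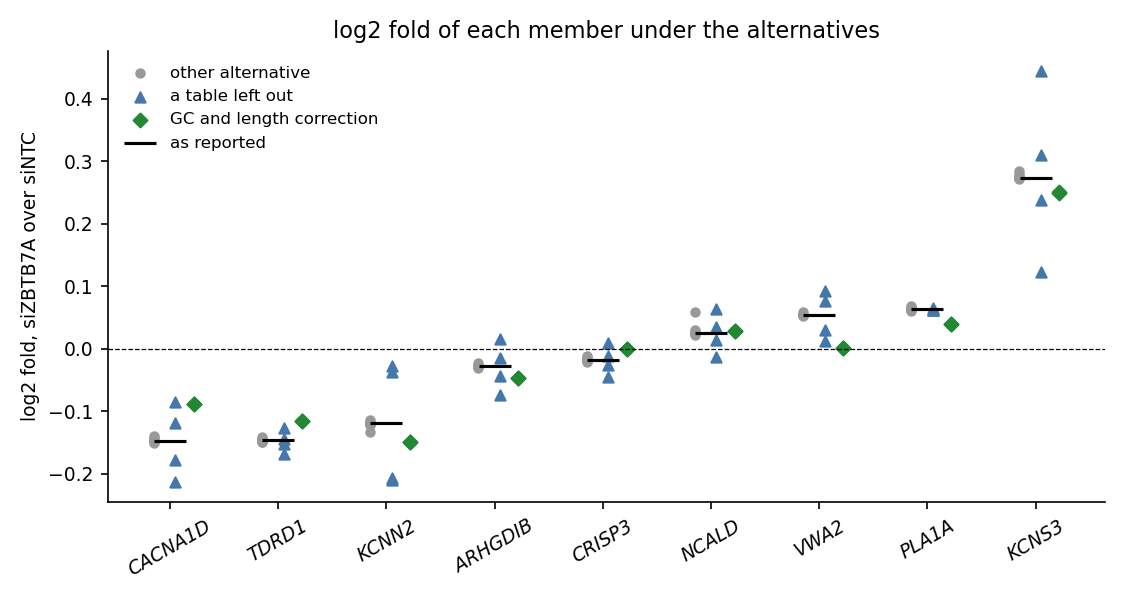
log2 fold of each member as reported (black bar) and under the alternatives: blue triangles leave out a table, green diamonds correct for GC content and length, and grey circles are the other alternatives. TDRD1 stays between -0.17 and -0.12 throughout, whereas KCNS3 moves between 0.12 and 0.44 when a table is left out.

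Other genes tied to ERG were taken from a fixed list of 20 genes reported as higher in fusion-positive cancers or induced by ERG. Of 16 tested, 2 were higher and 0 lower, where 2.25% of all genes tested were called higher and 2.72% lower, with a median log2 fold of 0.014, and 8 folds lay on each side of 1. NPY, which encodes neuropeptide Y, was 1.16-fold higher (1.11 to 1.21) from 3908 and 4291 reads (edgeR adjusted p = 6.05e-08). KHDRBS3, which encodes an RNA-binding protein, was 1.32-fold higher (1.14 to 1.54) from 322 and 403 reads (edgeR adjusted p = 0.00931). KHDRBS3 was not called without the first siNTC table or without the second siZBTB7A table (edgeR adjusted p = 0.124 in both), and DESeq2 gave it no adjusted p. Of 6 genes reported as lower with ERG, all tested, 1 was higher, the luminal gene SLC45A3 at 1.16 (1.10 to 1.21), and 0 were lower.

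Relatives and partners of the members were counted in the same way. In the piRNA pathway list of TDRD1, 7 of 17 genes were abundant enough to test and 0 were called (0 at an unadjusted p under 0.05 by edgeR). Over all genes tested in the same fit, 4.97% were called and 17.9% had an unadjusted p under 0.05. In DESeq2, whose own filter drops less abundant genes, VWA2 with 1149 reads had no adjusted p. The tested genes of this list had at most 803 reads (TDRKH), so DESeq2 could call none of them. The same holds for the potassium channel, lipase, CAP family and neuroendocrine lists below, where no gene had more than 919 reads (SYP). TDRKH, a tudor protein of the same pathway, was at 0.927 (0.805 to 1.07), and PLD6 at 1.06 (0.872 to 1.28). The PIWI gene PIWIL1 had 2 and 1 reads and PIWIL2 had 5 and 1 reads in the siNTC and siZBTB7A libraries, against 3285 and 2804 reads of TDRD1. PIWIL1 and PIWIL2 were chosen after their values were seen.

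Of the voltage-gated calcium channel subunits, 8 of 17 were tested and 0 were called (1 at an unadjusted p under 0.05 by edgeR, 0 by DESeq2). Such an edgeR p was found in 17.9% of all genes tested. CACNA1B was at 1.11 (1.01 to 1.22) and CACNA1H at 0.992 (0.881 to 1.12). With 867 and 908 reads CACNA1B had more reads than CACNA1D, which had 278 and 237. Of 8 potassium channel relatives, 3 were tested and 0 called (0 unadjusted), with KCNMA1 at 0.927 (0.749 to 1.15) and KCNN1 at 0.988 (0.633 to 1.54).

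Of 8 lipase relatives of PLA1A, 3 were tested and 0 called (3 at an unadjusted p under 0.05 by edgeR, as had 17.9% of all genes tested). LPL was at 1.15 (0.9998 to 1.31) and LIPG at 0.785 (0.646 to 0.953). In the CAP family list of CRISP3, 3 of 10 were tested and 0 called (0 unadjusted), with GLIPR2 at 0.922 (0.628 to 1.35) and CRISPLD1 at 1.18 (0.764 to 1.84). MSMB, whose product binds CRISP3 in seminal plasma, had 2 reads in each library, a gene singled out after its values were seen.

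In the list of small GTPases and inhibitors related to ARHGDIB, 8 of 9 were tested and 0 called (2 at an unadjusted p under 0.05 by edgeR, 0 by DESeq2), with RHOA at 1.03 (0.981 to 1.08) and CDC42 at 1.09 (1.02 to 1.17). In the list of matrix relatives and partners of VWA2, 6 of 10 were tested and 0 called (3 unadjusted, 0 by DESeq2), with VWA1 at 1.08 (1.02 to 1.14) and FREM2 at 0.828 (0.709 to 0.966). For both lists, the share of all genes tested with an unadjusted edgeR p under 0.05 was 17.9%. Each of these lists was written for its kinship to a member and is described by counts alone.

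Markers of luminal prostate epithelium were abundant, some neuroendocrine markers gave as many reads as the less abundant members, and the other marker lists had few reads. All 8 luminal markers were tested and 3 were higher, namely KLK2 at 1.02 (1.01 to 1.04), HOXB13 at 1.08 (1.04 to 1.13) and FOLH1 at 1.16 (1.11 to 1.21), where 2.25% of all genes tested were called higher. Corrected for GC content and length, KLK2 was at 0.997 (edgeR adjusted p = 0.759) and HOXB13 at 1.05 (edgeR adjusted p = 0.163), neither called, and DESeq2 called 1 of the 3, FOLH1. HOXB13 was also not called without either siNTC table or without the second siZBTB7A table (edgeR adjusted p = 0.0503, 0.0959 and 0.166). Their summed level was 5672 and 5609 CPM in siNTC and 5840 and 5855 CPM in siZBTB7A, so it was higher in both siZBTB7A tables. The part of this in the result for TDRD1 was not tested. The 5 tested neuroendocrine markers of 6 gave 0 calls (1 at an unadjusted p under 0.05 by edgeR, as had 17.9% of all genes tested). SYP was at 0.871 (0.763 to 0.994) and CHGA at 0.990 (0.843 to 1.16). The list summed to between 464 and 531 reads per table, with 504 and 415 reads per library from SYP and 324 and 303 from CHGA. The 3 basal markers summed to between 7 and 11 reads per table and the 3 matched endothelial markers to between 2 and 5. The 5 fibroblast markers summed to between 74 and 103 reads per table, most of them from LUM at 178 and 144 reads per library.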

How the data were processed

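RNA-seq of VCaP cells was deposited as whole-number read counts per gene by the authors, with no normalization, in the layout of STAR gene counts. The submitters' processing notes list STAR 2.4.2a, hg19 and GRCh37. The sources used here do not give the annotation release. The library kit was stranded and took total RNA, per the labels' protocols, and the strand whose counts exceeded the other by 24.9 to 25.5 times was used. Rows naming no gene (50.8% to 51.2% of reads) were left out.

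GENCODE 29 (another build) gave the symbols of 55698 identifiers, exon lengths and transcript GC content. RefSeq (GRCh38.p14) gave promoter sequences. Counts were tested with edgeR 4.0.16 in R 4.3.3 (TMM, filterByExpr, robust quasi-likelihood, group as the only term), with p-values adjusted over 12848 genes. Since 1 library stands for each group, p-values set the difference between the 2 libraries against the spread between tables only, which may be technical. The alternatives were DESeq2 1.42.0 (also its size factors), other filters, unstranded counts, protein-coding genes, a fit that was not robust, the replicate number as a block, a spline on GC content and length, an exact binomial test and leaving out each table. The fit and the intervals were tested on simulated counts that had sampling noise only and no GC or length bias. The changes simulated for the fit were larger than the folds of the members. This does not test calls at folds as small as that of TDRD1, or the removal of such a bias. Python 3.11.15, scipy 1.17.1 and pandas 2.3.3 were used. Named genes were the 9 members, ZBTB7A and ERG, and from each other list up to 4 called genes or, where none was called, the 2 tested genes with most reads. The members and the 16 other lists were chosen with earlier results of these data known. PECAM1 was not matched. The result of 1 of these lists is not reported here.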

Additional observations from a re-analysis of the deposited data

How the results depend on the processing

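Over all genes, 639 were called (289 higher, 350 lower). The GC and length correction called 369, the replicate block with that correction 376, and DESeq2 114. DESeq2 was run on 24914 genes with its own filter, against 12848 in edgeR, so its count is not over the same genes. Leaving the tables out in turn gave between 303 and 373. For these 9 genes the count of 1 became 0 with the GC and length correction (with or without the replicate block) and in DESeq2, which gave no adjusted p for 6 of them. Without single tables the count was between 0 and 1. By edgeR, 2 of the 9 had an unadjusted p under 0.05 after the correction, as had 15.3% of all genes tested. By DESeq2 1 of the 9 had, against 2.44% of its 24914 genes. In the other lists, the cell type markers left aside, 4 of 67 genes tested were called, beside 4.97% of all genes tested. DESeq2 called 2 of the 95 it was run on, beside 0.458% of its 24914 genes, and gave 1 of the 4 no adjusted p. The 4 did not all stay called when a table was left out.

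TDRD1 kept its sign under all 15 alternatives, between -0.17 and -0.12 in log2 fold (adjusted p 0.0030 to 0.115), and lost its call under 5 of them: both GC and length fits (-0.12), DESeq2 (-0.15), and without the second siNTC table (-0.14) or the first siZBTB7A table (-0.13). Without the first siZBTB7A table the log2 folds of CRISP3 (0.0084), ARHGDIB (0.016), NCALD (-0.013) and ERG (-0.026) changed sign. Leaving out a table gave -0.045 to 0.0084 for CRISP3, -0.074 to 0.016 for ARHGDIB, -0.013 to 0.063 for NCALD and -0.026 to 0.065 for ERG. None of these 4 was called under any alternative. The cause of the lost calls was not tested. Leaving out a table also leaves fewer reads, and the part of this was not tested.

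Tables with the same number did not deviate together (correlation -0.016 across 5452 genes). As the tables of a group differed by no more than read sampling, this cannot tell whether tables with the same number share anything. The replicate block called 654 genes and 1 of the 9, TDRD1 (adjusted p = 0.0038), so it changed no call among them.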

Other observations

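Reads on the opposite strand were few for 8 of the 9 members, with at most 10 per library. CACNA1D differed, with 37 such reads in the siNTC library and 28 in the siZBTB7A library. These were 11.7% (exact 95% interval 8.41% to 15.8%) and 10.6% (7.14% to 14.9%) of the reads on both strands. For KCNN2, the next highest member, the shares were 0.875% (0.239% to 2.23%) and 1.5% (0.552% to 3.24%). In RefSeq the gene CHDH overlaps CACNA1D. Scaled to the libraries, the opposite-strand reads of CACNA1D stood at 0.801 of the control (0.472 to 1.34), an interval that contains 1.

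The unstranded count was below the stranded one for 3 members, at 272 against 278 reads for CACNA1D, 442 against 453 for KCNN2 and 287 against 311 for NCALD in the siNTC library. For the other 6 it was equal or slightly higher. With unstranded counts the log2 fold of NCALD was 0.059, against 0.025 with stranded counts, and its call did not change.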
